A study of Homo sapiens with 4 samples.

Results

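The genes described here are a list of mitotic and spindle checkpoint genes, followed in Hut78 cells with and without ribavirin. The list was chosen with earlier results of these data known. A gene was taken from the table by its symbol among the transcript clusters (the array's probe set summaries of a whole gene), and of several clusters the brightest on average over the 4 arrays was kept. Of 40 genes listed, 39 were found this way, out of 25847 genes in the table, and the remaining gene is not analysed here. Hut78 is an established cell line that derives from a cutaneous T-cell lymphoma, and the comparison asks which transcripts differ after ribavirin, in a study of how that drug slows lymphoma growth. Total RNA was measured on 4 Affymetrix Human Transcriptome Arrays 2.0. The control group was 2 arrays of untreated Hut78 cells, and the ribavirin group 2 arrays of Hut78 cells kept in 50 µM ribavirin, a guanosine analogue used against viruses, for 120 h. Both groups share the medium, RPMI with fetal bovine serum, and the labels state neither a duration for the control nor separate cultures for the arrays, so p-values measure the spread between these arrays, which may be technical.

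Entry into mitosis is driven by the kinase CDK1 bound to a cyclin, mainly cyclin B, with PLK1 and the Aurora kinases acting beside it. Kinetochores then assemble on the centromeres and catch spindle microtubules, and the spindle checkpoint holds back the anaphase-promoting complex (APC/C, a ubiquitin ligase) until every chromosome is attached. The APC/C then marks securin and cyclin B for destruction, and the cell divides. The mRNAs of most of these genes accumulate in G2 and mitosis. In many of them the promoter holds a cell cycle homology region (CHR) together with CCAAT boxes, which are bound by DREAM and MYB-MuvB complexes and by NF-Y.

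The promoters of 6 of the genes are shown because their transcripts moved in opposite directions. They are the 3 that fell with ribavirin (CCNB1, CCNF and PLK1) and the 3 with the smallest p among those that rose (ANLN, CKS2 and NUSAP1). Each runs 5′ to 3′ from 250 bases before the gene's start to 50 bases after it (RefSeq, GRCh38.p14). Capitals mark a CHR motif (TTTGAA or TTCGAA, on either strand) or a CCAAT box (CCAAT, on either strand). The intervals, all on the plus strand, are chr5:69166900-69167199 for CCNB1, chr16:2429197-2429496 for CCNF, chr16:23678639-23678938 for PLK1, chr7:36389612-36389911 for ANLN, chr9:89310945-89311244 for CKS2 and chr15:41332631-41332930 for NUSAP1.
CCNB1: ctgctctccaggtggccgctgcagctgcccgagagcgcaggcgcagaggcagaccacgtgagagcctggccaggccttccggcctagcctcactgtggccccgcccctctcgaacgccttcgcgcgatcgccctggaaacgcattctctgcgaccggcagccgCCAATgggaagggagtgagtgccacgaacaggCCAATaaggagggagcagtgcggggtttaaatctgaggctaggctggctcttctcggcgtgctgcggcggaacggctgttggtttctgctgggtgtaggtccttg
CCNF: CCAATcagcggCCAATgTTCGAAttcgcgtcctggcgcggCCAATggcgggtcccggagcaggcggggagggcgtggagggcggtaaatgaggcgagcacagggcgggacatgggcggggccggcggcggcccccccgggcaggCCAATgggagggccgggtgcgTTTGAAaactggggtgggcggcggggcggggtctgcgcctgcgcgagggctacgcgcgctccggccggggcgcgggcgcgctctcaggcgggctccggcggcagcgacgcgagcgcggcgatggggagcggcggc
PLK1: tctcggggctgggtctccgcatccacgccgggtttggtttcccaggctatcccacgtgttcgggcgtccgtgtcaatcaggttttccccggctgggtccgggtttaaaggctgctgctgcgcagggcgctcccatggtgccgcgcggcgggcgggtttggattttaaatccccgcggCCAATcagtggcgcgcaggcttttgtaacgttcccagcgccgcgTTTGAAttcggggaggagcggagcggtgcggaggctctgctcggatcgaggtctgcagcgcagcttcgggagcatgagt
ANLN: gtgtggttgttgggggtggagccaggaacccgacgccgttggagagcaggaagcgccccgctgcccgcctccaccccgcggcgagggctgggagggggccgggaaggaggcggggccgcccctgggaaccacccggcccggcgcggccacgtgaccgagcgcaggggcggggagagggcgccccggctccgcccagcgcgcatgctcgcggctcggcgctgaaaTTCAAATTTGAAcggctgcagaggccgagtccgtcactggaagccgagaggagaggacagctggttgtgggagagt
CKS2: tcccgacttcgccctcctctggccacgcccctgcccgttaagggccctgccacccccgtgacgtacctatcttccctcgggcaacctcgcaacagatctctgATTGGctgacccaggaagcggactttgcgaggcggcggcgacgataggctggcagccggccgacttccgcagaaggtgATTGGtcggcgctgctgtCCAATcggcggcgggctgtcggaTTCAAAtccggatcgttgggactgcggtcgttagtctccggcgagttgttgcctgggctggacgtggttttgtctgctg
NUSAP1: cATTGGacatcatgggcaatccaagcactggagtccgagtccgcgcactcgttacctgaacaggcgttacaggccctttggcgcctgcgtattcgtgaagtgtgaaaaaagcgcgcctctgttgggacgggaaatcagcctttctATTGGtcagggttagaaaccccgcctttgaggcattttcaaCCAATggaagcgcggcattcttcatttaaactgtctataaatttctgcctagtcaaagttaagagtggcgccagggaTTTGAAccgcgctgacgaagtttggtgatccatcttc

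CCNB1 held 2 CCAAT boxes and no CHR of these letters in this window, CCNF held 2 CHR motifs and 4 CCAAT boxes, and PLK1 held 1 of each. ANLN held 2 CHR motifs, which lie back to back, and no CCAAT box. CKS2 and NUSAP1 each held 1 CHR motif and 3 CCAAT boxes. A promoter was found for 34 of the 39 genes, the first listed start being used where a gene had several. Of these 34, 24 (70.6%) held a CHR motif, 27 (79.4%) a CCAAT box and 21 (61.8%) both. Over the promoters of all 27305 genes in the RefSeq table the shares were 16.6%, 35.7% and 6.58%. A CHR motif stood in 13 of the 14 promoters of genes that rose, in 2 of the 3 of genes that fell and in 9 of the 17 of genes that did not pass. CCAAT boxes stood in 10 of 14, 3 of 3 and 14 of 17. The letters of both motifs were thus found on either side of the split in response, and a match is a description of the sequence only.

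Nearly all of the genes gave a signal above background. Values are log2 probe set summaries, so a difference of 1 is a doubling, and the control means ran from 4.87 (CDCA3) to 14.93 (PLK1) with a median of 8.88. Background probe sets averaged at most 5.04 over the 4 arrays, and 38 of the 39 genes had a mean above that, CDCA3 being the exception. Over all genes 10221 of 25847 lay above it, so shares of these brighter genes are given beside those of all genes. The cells carried T-cell transcripts: the CD3 chains CD3D, CD3E and CD3G averaged 11.84, 11.11 and 11.45 in control, the T-cell kinase LCK 10.93, while CD2 (3.60) and CD28 (3.09) lay in the background range. Of 12 T-cell markers measured 7 fell with ribavirin (median log2 change -0.47). Of 9 myeloid markers 8 lay in the background range, but among B-cell markers CD79A reached 11.18. Of 7 B-cell markers 2 fell and none rose, and of 8 epithelial and fibroblast markers 4 fell and none rose (median log2 change -0.29). The part of these shifts in the results was not tested. Since whole cultures were measured, fewer cells in mitosis and less RNA per mitotic cell cannot be told apart, and the same holds for rises.

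Ribavirin arrays gave higher values for a large part of the mitotic genes and lower ones for 3 regulators. Of the 39 genes, 15 rose, 3 fell and 21 did not pass (limma, Benjamini-Hochberg adjusted p under 0.05 over all 25847 genes). That is 46.2% called, 38.5% upward and 7.69% downward. In the same fit 15.2% of all genes were called, 9.34% upward and 5.88% downward, and of the genes above background 32.9%, 21.7% and 11.1%. The share that rose was thus above that of the brighter genes and the share that fell was below it, with no test of either difference. Because the list was chosen with earlier results of these data known, an excess of rises may be partly built in. The median log2 change of the 39 genes was 0.26, against -0.05 over all genes and 0.07 over those above background. It was 0.15 with quantile normalization and also 0.15 without ribavirin replicate 1. Both ribavirin arrays lay above both controls for 25 genes and below both for 7, and the groups overlapped for 7. Over all genes 24.1% lay above and 35.8% below, and over those above background 45.9% and 30.6%. The changes were moderate: 4 of the 39 reached 2-fold, namely NDC80, ANLN, CKAP2 and CKS2, and no fall did. With a gene's clusters averaged CKAP2 gave 0.61 and CKS2 0.96 on the log2 scale, both short of 2-fold.

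These calls rest on all 4 arrays. When either control array was left out, replicate 1 or replicate 2, no call among the 39 genes held. Their median log2 change was then 0.20 and 0.29. Without ribavirin replicate 1, 7 rose and 0 fell, and without ribavirin replicate 2, 14 rose and 0 fell. Each of the 18 called genes kept its direction in every fit run. With the arrays quantile-normalized anew 12 rose and 4 fell, and with each array centred on its median 16 rose and 2 fell. The all-gene split was more sensitive: 61.3% of calls were upward, against 49.3% and 73.7% with those scalings, and 66.2%, 48.8% and 76.4% among genes above background. The median of the brighter genes was -0.03 and 0.13 with them.

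**Figure D1:**
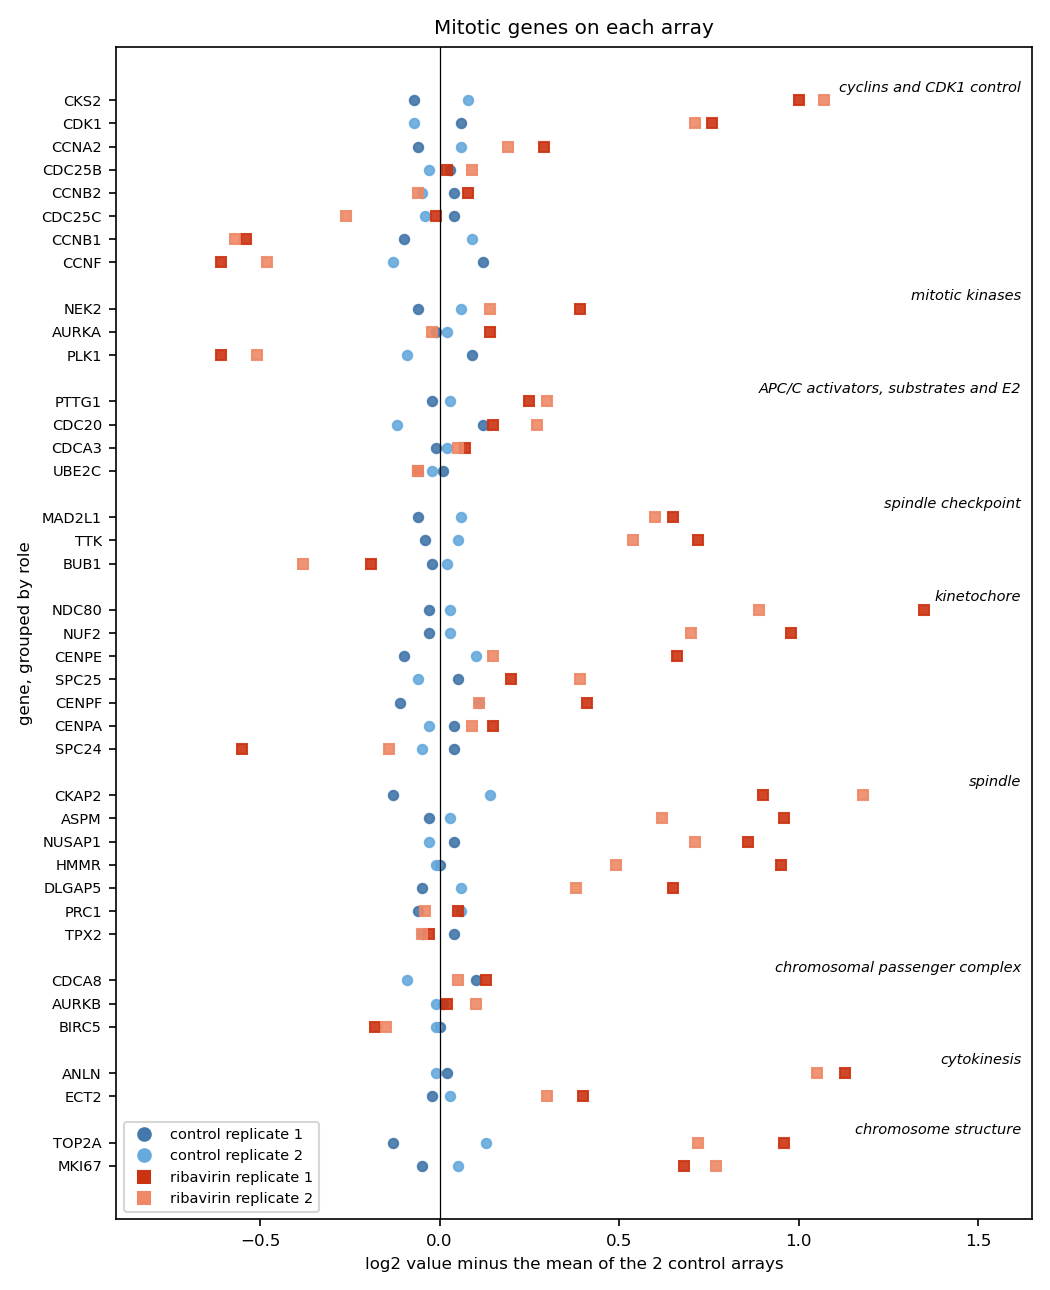
Each row is a gene, grouped by role, and each point an array, plotted as its log2 value minus the mean of the 2 control arrays (circles, control; squares, ribavirin). The squares of 25 genes lie to the right of both circles and those of 7 to the left, with CCNB1, CCNF and PLK1 lowest by log2 change.

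Among cyclins and the direct controllers of CDK1, 2 of 8 genes rose, 2 fell and 4 did not pass (median log2 change 0.03, and -0.09 with quantile normalization). CKS2, the small subunit that docks CDK1 to its substrates (TC09002074.hg.1), was at 12.42 and 12.57 in control and 13.49 and 13.56 with ribavirin. Its ribavirin arrays lay clear of the controls, and it rose 2.04-fold, by 1.03 on the log2 scale (SE 0.09, adjusted p by limma = 0.00405). CDK1 itself was at 7.33 and 7.20 in control and 8.03 and 7.98 with ribavirin. It rose by 0.74 (SE 0.08, adjusted p = 0.00658), and the gap between the groups was wider than the distance within either. CCNB1, the main mitotic cyclin (TC05002418.hg.1), moved the other way, from 14.02 and 14.21 to 13.58 and 13.55. The groups did not overlap, and it fell by 0.55 on the log2 scale (SE 0.09, adjusted p = 0.0179). CCNF, the F-box cyclin that serves as a substrate receptor of an SCF ubiquitin ligase, was at 9.37 and 9.12 in control and 8.64 and 8.77 with ribavirin. It fell by 0.55 (SE 0.11, adjusted p = 0.0334), and this call ended with each array centred on its median (adjusted p = 0.0628).

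The other cyclins and phosphatases did not pass. CCNB2, the second B-type cyclin, was at 10.54 and 10.45 in control and 10.58 and 10.44 with ribavirin, so its groups overlapped. Its log2 change of 0.01 had a 95% interval of -0.21 to 0.23, and that of CCNB1 ran from -0.78 to -0.32. The 2 intervals do not meet. The difference between the 2 cyclins within an array (CCNB2 minus CCNB1) moved by 0.56, from -3.49 and -3.75 to -3.00 and -3.11. CCNA2, which acts in S phase and G2, gave 0.23 (95% interval 0.02 to 0.44, adjusted p = 0.141) with both ribavirin arrays above both controls. The CDK1-activating phosphatases CDC25B and CDC25C gave 0.05 and -0.13 with overlapping arrays and adjusted p of 0.681 and 0.469.

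Of the mitotic kinases, 1 of 3 fell and none rose. PLK1, which acts from mitotic entry to cytokinesis, was at 15.02 and 14.84 in control and at 14.32 and 14.42 with ribavirin. All ribavirin values lay below the controls, and it fell by 0.56 (SE 0.09, limma adjusted p = 0.0189). The Aurora kinase of the spindle poles, AURKA, was at 13.62 and 13.65 in control and 13.77 and 13.61 with ribavirin, which overlap, with a log2 change of 0.06 (95% interval -0.16 to 0.28). The interval of PLK1, -0.79 to -0.32, lies below it, and AURKA minus PLK1 moved by 0.62 within arrays. The centrosomal kinase NEK2 gave 0.27 (adjusted p = 0.190), with both ribavirin arrays above both controls. None of the falls of CCNB1, CCNF and PLK1 passed when any 1 array was left out, with adjusted p from 0.0645 to 0.156. CDK1 lost its call without ribavirin replicate 1 (adjusted p = 0.0514), and CKS2 kept its call without either ribavirin array.

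None of the 4 APC/C activators, substrates and partners passed by limma, and 1 had an unadjusted p under 0.05. That was PTTG1, securin, which holds separase inactive until anaphase, with 5.13 and 5.18 in control and 5.40 and 5.45 with ribavirin (log2 change 0.27, adjusted p = 0.0663). Its control mean of 5.15 lay within the range of background probe sets on those arrays, and it passed with each array centred on its median (adjusted p = 0.0356) and with genes below the median left out (0.0311). CDC20, the activator that the checkpoint sequesters, gave 0.21 (95% interval -0.07 to 0.49). The ubiquitin-conjugating enzyme UBE2C gave -0.05 (-0.23 to 0.12), so a change beyond 0.23 either way lay outside its interval. CDCA3, an F-box-like trigger of mitotic entry, gave 0.06 in the background range, where changes can be compressed.

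In the spindle checkpoint 2 of 3 genes rose and none fell (median 0.63). MAD2L1, the protein that binds CDC20 when a kinetochore is unattached, went from 7.47 and 7.59 to 8.18 and 8.13. It rose by 0.63 (SE 0.08, limma adjusted p = 0.00936). TTK, the kinase MPS1 that starts checkpoint signalling, went from 6.79 and 6.88 to 7.55 and 7.37, also a rise of 0.63 (SE 0.09, adjusted p = 0.0141). In both genes the ribavirin arrays stood apart from the controls by more than the distance within either group. BUB1, a checkpoint kinase of the kinetochore, had lower ribavirin values (10.63 and 10.44) than control values (10.80 and 10.84). Its log2 change of -0.29 did not pass (adjusted p = 0.102), except with quantile normalization, where it was -0.40 (0.0342). Without ribavirin replicate 1, MAD2L1 (adjusted p = 0.0652) and TTK (0.0715) did not pass.

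Of 7 kinetochore genes 2 rose, none fell and 5 did not pass (median 0.30). Both that rose encode the microtubule-binding arm of the NDC80 complex, a rod of 4 proteins that joins kinetochores to microtubules. NDC80 (TC18000009.hg.1) was at 6.89 and 6.95 in control and 8.27 and 7.81 with ribavirin, and NUF2 went from 6.88 and 6.94 to 7.89 and 7.61. NDC80 rose by 1.12 (SE 0.16, limma adjusted p = 0.0126), and NUF2 by 0.84 (SE 0.11, adjusted p = 0.0101). SPC24 and SPC25, which form the other end of the rod, did not pass. SPC25 went from 6.30 and 6.19 to 6.45 and 6.64 (0.30, adjusted p = 0.103), and SPC24 from 8.03 and 7.94 to 7.44 and 7.85 (-0.34, adjusted p = 0.207). The 95% interval of SPC24 ran from -0.71 to 0.04 and that of NDC80 from 0.72 to 1.53, so they do not meet. Within arrays NDC80 minus SPC24 moved from -1.14 and -0.99 to 0.83 and -0.05, a change of 1.46, and NUF2 minus SPC25 moved by 0.54. For each of the 4 pairs compared (these 2, the B cyclins, and AURKA with PLK1) the exact two-sided permutation p over the 4 arrays was 0.333, raw and adjusted over the 4, which is the smallest this design allows. Each pair sets a called gene beside a gene that did not pass. Neither the separate intervals nor these differences are therefore further support for a split.

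The centromere histone CENPA gave 0.12 (95% interval -0.07 to 0.30). CENPE, the kinetochore motor, was at 5.25 and 5.45 in control and 6.01 and 5.50 with ribavirin, and CENPF at 6.42 and 6.64 against 6.94 and 6.64. Neither passed (adjusted p of 0.216 and 0.268), and in both the second ribavirin array lay close to the higher control array.

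Spindle genes gave the most rises: 5 of 7 rose, none fell and 2 did not pass (median 0.72). CKAP2, a microtubule stabiliser, was at 8.99 and 9.26 in control and 10.02 and 10.30 with ribavirin, and rose by 1.04 (SE 0.14, limma adjusted p = 0.0108). NUSAP1, which bundles microtubules around chromosomes, went from 11.61 and 11.54 to 12.43 and 12.28, a rise of 0.78 (SE 0.08, adjusted p = 0.00644). In neither did the groups overlap. The spindle pole protein ASPM went from 8.76 and 8.82 to 9.75 and 9.41 and rose by 0.79 (SE 0.13, adjusted p = 0.0173). HMMR, the hyaluronan-mediated motility receptor that also binds spindles, went from 6.35 and 6.34 to 7.30 and 6.84 and rose by 0.72 (SE 0.16, adjusted p = 0.0407). DLGAP5, which stabilises kinetochore fibres, went from 8.66 and 8.77 to 9.36 and 9.09 and rose by 0.51 (SE 0.11, adjusted p = 0.0400). In ASPM, HMMR and DLGAP5 the first ribavirin array was the higher by 0.34, 0.46 and 0.27, more than the distance between controls. HMMR and DLGAP5 did not pass with quantile normalization (adjusted p of 0.0529 and 0.0657). Without ribavirin replicate 1, ASPM (0.0534), HMMR (0.0723) and DLGAP5 (0.136) did not pass.

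The other 2 spindle genes were flat. TPX2, the activator of AURKA, was at 14.19 and 14.10 in control and 14.12 and 14.10 with ribavirin (-0.04, 95% interval -0.23 to 0.15). PRC1, the crosslinker of the central spindle, was at 8.91 and 9.03 against 9.02 and 8.93 (0.00, interval -0.21 to 0.22). Their arrays overlapped, and both intervals exclude the estimate of 0.51 for DLGAP5, the smallest rise among the 5. The interval of DLGAP5 itself ran from 0.23 to 0.80, so it began close to the upper end of that of PRC1.

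None of the 3 genes of the chromosomal passenger complex, which corrects faulty attachments, passed by limma, and none had an unadjusted p under 0.05. AURKB, its kinase, gave 0.06 (95% interval -0.12 to 0.25), CDCA8 (borealin) 0.08 (-0.15 to 0.32) and BIRC5 (survivin) -0.16 (-0.34 to 0.01). BIRC5 was at 10.30 and 10.29 in control and 10.12 and 10.15 with ribavirin, a small gap without overlap.

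Both cytokinesis genes and both chromosome genes rose. ANLN, anillin, the scaffold of the contractile ring (TC07000235.hg.1), was at 8.90 and 8.87 in control and 10.01 and 9.93 with ribavirin. It rose 2.12-fold, by 1.09 (SE 0.07), with the smallest adjusted p of the 39 genes (limma, 0.00276). ECT2, the RhoA exchange factor that positions that ring, rose by 0.35 (SE 0.08, adjusted p = 0.0391), from 7.26 and 7.31 to 7.68 and 7.58. It did not pass with quantile normalization (0.148), nor without ribavirin replicate 1 (0.177) or ribavirin replicate 2 (0.0959). TOP2A, the topoisomerase that untangles sister chromatids, went from 12.62 and 12.88 to 13.71 and 13.47 and rose by 0.84 (SE 0.13, adjusted p = 0.0150; 0.0763 without ribavirin replicate 1). MKI67, the Ki-67 antigen that coats mitotic chromosomes, went from 14.15 and 14.25 to 14.88 and 14.97 and rose by 0.72 (SE 0.08, adjusted p = 0.00669).

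**Figure D2:**
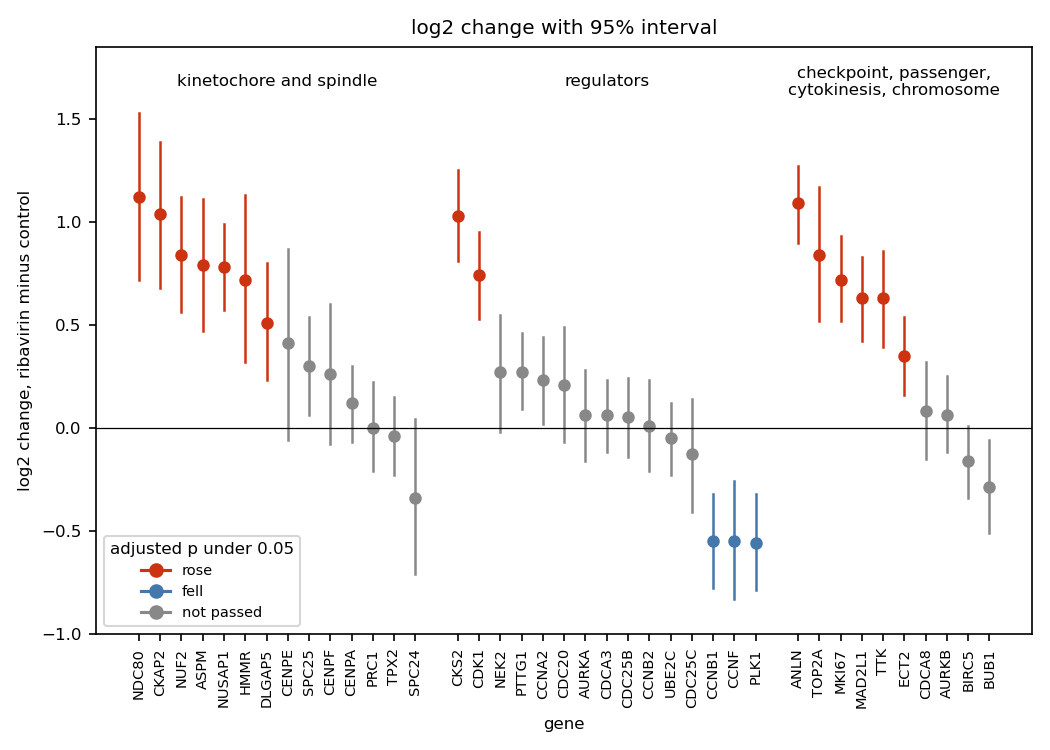
Points are log2 changes, ribavirin minus control, of the 39 genes with limma's 95% intervals as bars, in 3 groups sorted by size. Of 14 kinetochore and spindle genes 7 rose and none fell, and of 15 regulators 2 rose and 3 fell.

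The counts of kinetochore and spindle genes and of regulators are set side by side here, and no test compared them. The genes and their roles were chosen with earlier results of these data known, so a split may be partly built in. Of the 14 kinetochore and spindle genes 7 rose (5 with quantile normalization) and none fell by limma. None had a fall with an unadjusted p under 0.05, and their median log2 change was 0.46 (0.37 with quantile normalization). Of the 15 regulators (cyclins and CDK1 controllers, mitotic kinases, APC/C genes) 2 rose and 3 fell, and their median was 0.06 (-0.001 with quantile normalization). That is 50% and 33.3% called, against 32.9% of genes above background. Measured array by array against the control mean, the median kinetochore and spindle gene stood at 0.65 and 0.39 in the ribavirin arrays, and the median regulator at 0.08 and 0.05. The remaining 10 genes, of the checkpoint, the passenger complex, cytokinesis and chromosome structure, had 6 rises, no fall and a median of 0.49. Among the regulators CDK1 and CKS2 rose, and among the 7 kinetochore and spindle genes that did not pass, SPC24, TPX2 and PRC1 gave -0.34, -0.04 and 0.00. Without ribavirin replicate 1 the kinetochore and spindle rises were 4 and the regulator counts 1 rise and 0 falls. Without ribavirin replicate 2 they were 7, 2 and 0, and without either control replicate all were 0.

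The 2 ribavirin arrays differed in these genes. Replicate 1 was the higher in 27 of the 39 genes (69.2%), in 11 of the 14 kinetochore and spindle genes and in 12 of the 15 genes that rose, against 60.0% of genes above background. The median gap of kinetochore and spindle genes was 0.20, and that of regulators 0.03, the same as that of all genes above background. NDC80 (0.46), HMMR (0.46) and CENPE (0.50) had the widest gaps upward, and SPC24 (-0.41) the widest downward. Control replicate 1 was the higher in 18 of 39 genes, with a median gap of -0.03. The median kinetochore and spindle gene stood above control in both arrays, further in replicate 1.

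**Figure D3:**
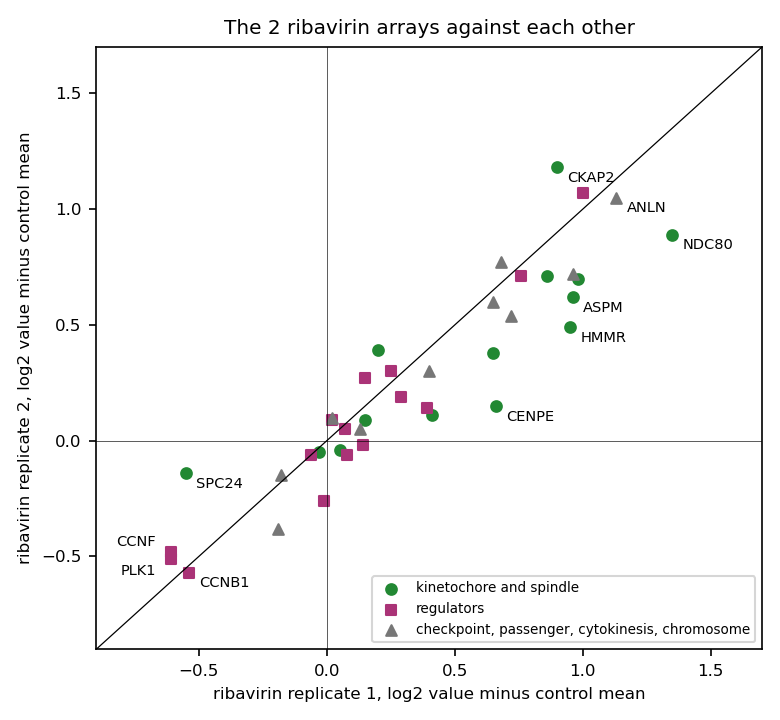
Each point is a gene, placed by its log2 value in ribavirin replicate 1 (x axis) and replicate 2 (y axis), both minus the control mean, and the diagonal marks equal values. Kinetochore and spindle genes such as NDC80, HMMR, ASPM and CENPE lie below the diagonal, and CCNB1, CCNF and PLK1 lie near it at about the same distance below 0.

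For 10 of the 39 genes the table held further transcript clusters, which the counts above did not use. They come from the same RNA and may share probes, so they are no replicates. In CCNB1 the other cluster went from 12.11 and 12.22 to 11.80 and 11.68, and it too fell (-0.43, adjusted p = 0.0345 with all clusters tested). In CKS2 the other cluster rose by 0.88 (adjusted p = 0.0172), in TOP2A by 0.91 (0.00492), and in CKAP2 by 0.85 (0.00854). One more CKAP2 cluster lay in the background range and gave -0.06. In ASPM the other cluster, at 6.06 and 6.10 against 6.77 and 6.26, gave 0.43 and did not pass (0.184). Both AURKA clusters gave 0.06 and both CDC25C clusters were near 0 (-0.13 and -0.08). The other cluster of NEK2 gave 0.30 (0.0638), that of CENPE 0.19 (0.564) and that of BIRC5 0.10 in the background range (0.467). The choice of cluster therefore moved sizes. The call ended in ASPM and in the dim CKAP2 cluster, and the sign turned in that cluster and in BIRC5.

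Beyond these genes, 143 others of mitosis in 5 lists were counted in the same way: 43 rose (30.1%), 7 fell (4.90%) and 93 did not pass, with a median of 0.21. The 35% called was near the 32.9% of genes above background, of which 21.7% rose and 11.1% fell. With quantile normalization 34 rose and 15 fell. Without ribavirin replicate 1 the counts were 14 and 0, and without ribavirin replicate 2 they were 26 and 0. Without control replicate 1 or 2 no call among the 143 genes held, and their median log2 change was 0.22 and 0.19. Of 41 kinetochore and checkpoint partners 12 rose and 2 fell with quantile normalization. On the deposited values 13 rose and none fell by limma (31.7% called, median 0.32). The smallest p belonged to SKA1, of the complex that tracks microtubule ends beside NDC80 (1.13, adjusted p = 0.00245), ZWILCH, of the RZZ checkpoint complex (1.16, 0.00604), OIP5, which helps load CENPA (0.80, 0.00718), and CENPO, of the inner kinetochore (0.77, 0.00792). Of 21 cohesin, condensin and separase genes 7 rose and 1 fell (38.1% called, median 0.34). Among them the cohesin ring subunits SMC1A (0.86, adjusted p = 0.00390) and RAD21 (0.91, 0.00518), its protector SGOL1 (1.02, 0.00518) and the condensin subunit NCAPG (1.11, 0.00770) rose. The fall, picked out once the values were known, was that of ESPL1, the separase that cuts cohesin (-0.38, adjusted p = 0.0313).

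Of 38 genes of spindle poles, augmin and microtubule factors 11 rose and none fell (median 0.18), with TACC1 (1.30, limma adjusted p = 0.00390), the abscission protein CEP55 (0.83, 0.00427), the centriole duplication factor STIL (0.88, 0.00658) and BORA, which helps activate PLK1 (0.55, 0.00975). In the APC/C core and its partners 5 of 17 rose and 2 fell (median 0.06, and -0.08 with quantile normalization). The subunit ANAPC5 (-0.60, adjusted p = 0.0169) fell, and ANAPC16 (0.53, 0.0186), the APC/C inhibitor FBXO5 (0.65, 0.0190) and the ubiquitin-conjugating enzyme UBE2S (0.52, 0.0237) rose. The other calls, picked out once the values were known, were the rises of ANAPC10 (0.37, 0.0257) and CDC27 (0.34, 0.0379) and the fall of ANAPC1 (-0.39, 0.0397). Of 26 genes of mitotic entry and transcription 7 rose and 4 fell (median 0.10), with the pocket protein RBL1 (0.63, 0.00893), the repressor E2F7 (0.81, 0.00935), MASTL, the Greatwall kinase (0.59, 0.00987), and the MuvB subunit LIN54 (0.80, 0.0119) rising. The falls, picked out once the values were known, were the CDK1-inhibiting kinase WEE1 (-0.48, adjusted p = 0.0150), its opponent CDC25A (-0.42, 0.0205), E2F4 (-0.58, 0.0259) and E2F5 (-0.33, 0.0461). Of 38 DNA replication and G1/S genes 7 rose and 2 fell, with a median of 0.05 (-0.06 with quantile normalization), and no test compared the lists. The 2 falls, also picked out once known, were the replicative helicase subunit MCM2 (-0.56, adjusted p = 0.0145) and the chromatin assembly subunit CHAF1B (-0.53, 0.0100). In the spindle pole list 6 genes rose and 2 fell with quantile normalization. On the deposited values the called shares were 28.9% (spindle poles), 41.2% (APC/C), 42.3% (mitotic entry) and 23.7% (DNA replication). Of genes above background 32.9% were called, 21.7% upward and 11.1% downward.

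**Figure D4:**
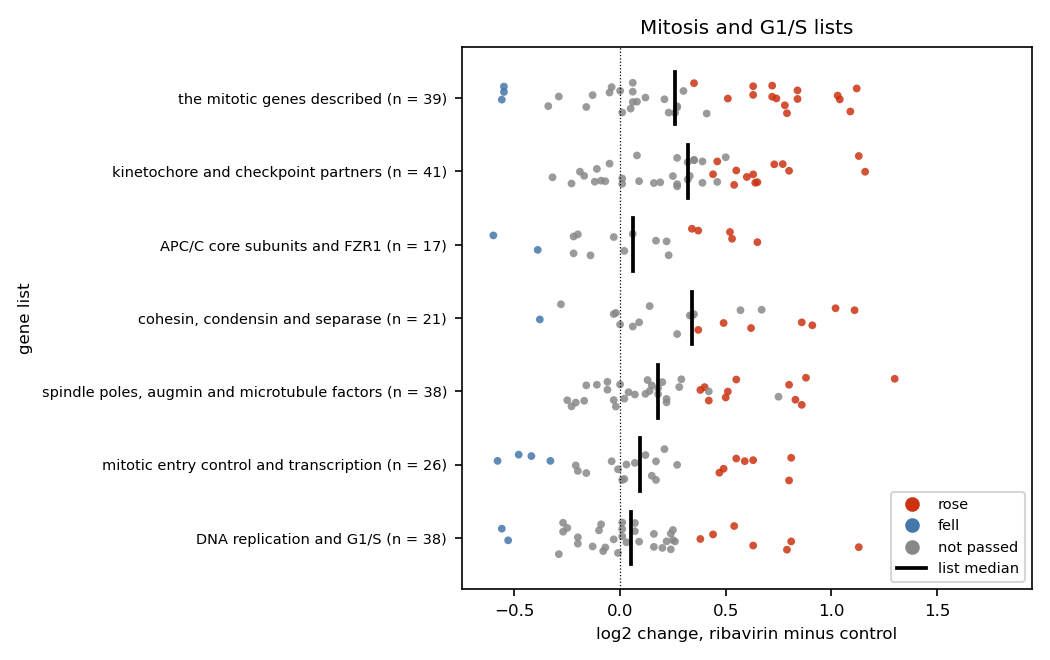
Points are genes, placed by log2 change, ribavirin minus control, in 7 lists, coloured by call, with a bar at each list's median (vertical scatter within a list has no meaning). The medians run from 0.05 for DNA replication and G1/S genes to 0.34 for cohesin, condensin and separase genes, with the 39 genes at 0.26, and their order changes with quantile normalization (-0.08 for the APC/C list, -0.06 for DNA replication and G1/S, 0.20 for cohesin and 0.22 for kinetochore partners).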

How the data were processed

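Total RNA of Hut78 cells was measured on 4 arrays, 2 per group. The authors deposited log2 summaries per probe set, and the table's name gives SST-RMA as their method. RMA and Affymetrix Expression Console are named per the submitters' processing notes, and the design text adds the Exon Array Computational Tool, all without versions or filters. A second deposited table held the same values (largest difference 0). Folds near background or near the ceiling of 19.9 can be compressed.

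Of 67528 transcript clusters, 33444 carried 1 symbol and gave 25847 genes. All were fitted with limma 3.58.1 in R 4.3.3 (lmFit, eBayes, no covariate, 2 residual and 3.19 prior degrees of freedom, two-sided). Groups and array numbers came from the sample titles. Same-numbered arrays were not treated as pairs, since the labels do not tie them. Their deviations correlated at 0.05 across genes. The gene medians of the arrays lay between 4.20 and 4.30, and arrays of 1 group correlated at 0.998. The number of arrays limits the precision.

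The genes, roles and lists were chosen with earlier results of these data known. Named were all 39 genes and up to 4 called genes with the smallest p per mitosis list. Further genes, picked once the values were known, are marked so in the text. Symbols came from the deposited values, and all 39 were also found in RefSeq. Promoters (34 matched) came from RefSeq GRCh38.p14. For this comparison limma was also run on simulated data with 25847 genes, with the spreads shuffled among genes. It recovered 0 of 50 genes changed 1.25-fold, 0 of 50 at 1.5-fold, 27 of 50 at 2-fold and 43 of 50 at 4-fold. It called 0 of 25647 unchanged genes. Fewer genes were changed than in the data, so these counts do not measure the sensitivity of the fit. Alternatives were an intensity trend, robust moderation, quantile normalization, median centring, a filter on dim genes, averaged clusters, the array number as a block and each array left out. Testing every cluster was added after the data were seen. One marker gene is not reported here.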

Additional observations from a re-analysis of the deposited data

How the results depend on the processing

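An intensity trend, robust moderation and averaging a gene's clusters changed no call among the 39 genes, nor did testing every cluster, which was chosen after seeing the data. Averaging moved CKAP2 from 1.04 to 0.61. With genes below the median left out, 1 more gene passed. With the array number as a replicate block, 13 genes rose and 2 fell, CCNF (adjusted p = 0.0563), DLGAP5 (0.0617) and ECT2 (0.0699) lost their calls and no other call changed, but array numbers are not known to pair. Across the fits without 1 array, rises ran from 0 to 14 and falls from 0 to 0, kinetochore and spindle rises from 0 to 7, regulator rises from 0 to 2 and regulator falls from 0 to 0, and all genes called from 26 to 2001. A group left with 1 array borrows its spread from the other. The median change ran from 0.15 to 0.29 over the 39 genes and from 0.39 to 0.65 over kinetochore and spindle genes. The median of the 39 genes was 0.15 with quantile normalization and 0.33 with centred arrays. That of kinetochore and spindle genes was 0.37 and 0.52, and that of regulators -0.001 and 0.12.

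Signs turned only in genes that did not pass. With quantile normalization CCNB2 gave -0.09, CDC25B -0.09, AURKA -0.001, CENPA -0.01, PRC1 -0.11, AURKB -0.05 and CDCA8 -0.03. With centred arrays UBE2C gave 0.01 and TPX2 0.03. With 1 array left out, CCNB2 ran from -0.06 to 0.08, AURKA from -0.02 to 0.14, PRC1 from -0.06 to 0.07, TPX2 from -0.08 to 0.01 and CDCA8 from -0.01 to 0.18. The cause was not tested. Signal over background limits CDCA3, PTTG1 and CENPE most. In simulation 0 of 50 genes changed 1.5-fold were called. That simulation had fewer changed genes than the data and spreads shuffled among genes. In the data ECT2 (1.27-fold) and DLGAP5 (1.43-fold) were called by limma, so the simulation does not give the sensitivity of this fit.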
